A study of Mus musculus with 36 samples.

Results

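The 36 genes described here encode the transporters and enzymes of glycolysis and the genes that sense or answer low oxygen. They were chosen as a list of symbols, not by a threshold on their values, but with earlier results of these data known. All 36 were among the 21516 genes of the deposited count tables. Of the 36, 4 carry glucose or lactate across the plasma membrane, 21 encode glycolytic, lactate dehydrogenase or pyruvate dehydrogenase kinase enzymes or their regulators, and 11 belong to hypoxia sensing and its targets.

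Glycolysis splits glucose into pyruvate, and lactate dehydrogenase then turns pyruvate into lactate so that the pathway can go on without the mitochondria. The hypoxia-inducible factors (HIF) are transcription factors whose alpha subunits are marked for destruction by oxygen-dependent prolyl hydroxylases, and when oxygen is short they raise glucose transporters, most glycolytic enzymes, pyruvate dehydrogenase kinases and genes such as Vegfa and Bnip3. Pluripotent stem cells are known for a high glycolytic rate, which changes as they differentiate.

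The cells were mouse embryonic stem cells of a 129/sv line that carries FUCCI transgenes, fluorescent reporters of cell cycle phase, and every group derives from that line. All groups had 15% serum and were lysed after 72 h of treatment, which began about 18 h after passage at about 24% confluence. NS (normal stemness, the reference) received LIF, the cytokine that keeps these cells self-renewing, at 1000 U/mL. ND (normal differentiation) and RA (1 µM RA, which the labels do not spell out and which is taken here as retinoic acid) were cultured without LIF. Sorb300 (300 mM sorbitol), BP1 and BP4 (BP at 1 and 4 µM), Cort10 and Cort60 (cortisol at 10 and 60 µM), DEP5 and DEP10 (DEP at 5 and 10 µM) and PFOA60 and PFOA100 (PFOA at 60 and 100 µM) kept LIF. Of each toxicant the lower dose was the lowest with an effect on growth, and the higher dose cut growth by 75%. Each of the 12 groups had 3 libraries, so each mean ± SD is over n = 3, and values are given in the order of replicates 1, 2 and 3. The labels call the triplicates biological experiments of a shared line. The p-values measure the spread between libraries within groups, estimated over all 12 groups and, unless stated, without a term for the replicate number.

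Library totals ran from 1848254 to 7288084 counts. Levels are CPM, counts relative to the TMM-scaled library total, and since the libraries read the 3' ends of transcripts, levels of different genes are not ranked against each other. All 10 stem cell markers were measured. Marker sums, here and below, are CPM on raw library totals without TMM scaling. The stem cell markers summed to 3048 to 4306 CPM in NS, 2271 to 3050.4 in ND, 3470.2 to 4521 in Sorb300 and 637 to 1019 in RA. In bulk RNA, fewer cells of a type and less RNA per cell cannot be told apart. The 36 genes took 0.955 to 1.53% of all counts in NS, 1.07 to 1.46% in ND, 0.857 to 1.73% in the 24 toxicant libraries, 0.726 to 1.01% in Sorb300 and 0.546 to 0.673% in RA. The highest RA library lay below every library of the other groups, and the Sorb300 range met those of NS and of the toxicants at its upper end.

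**Figure D1:**
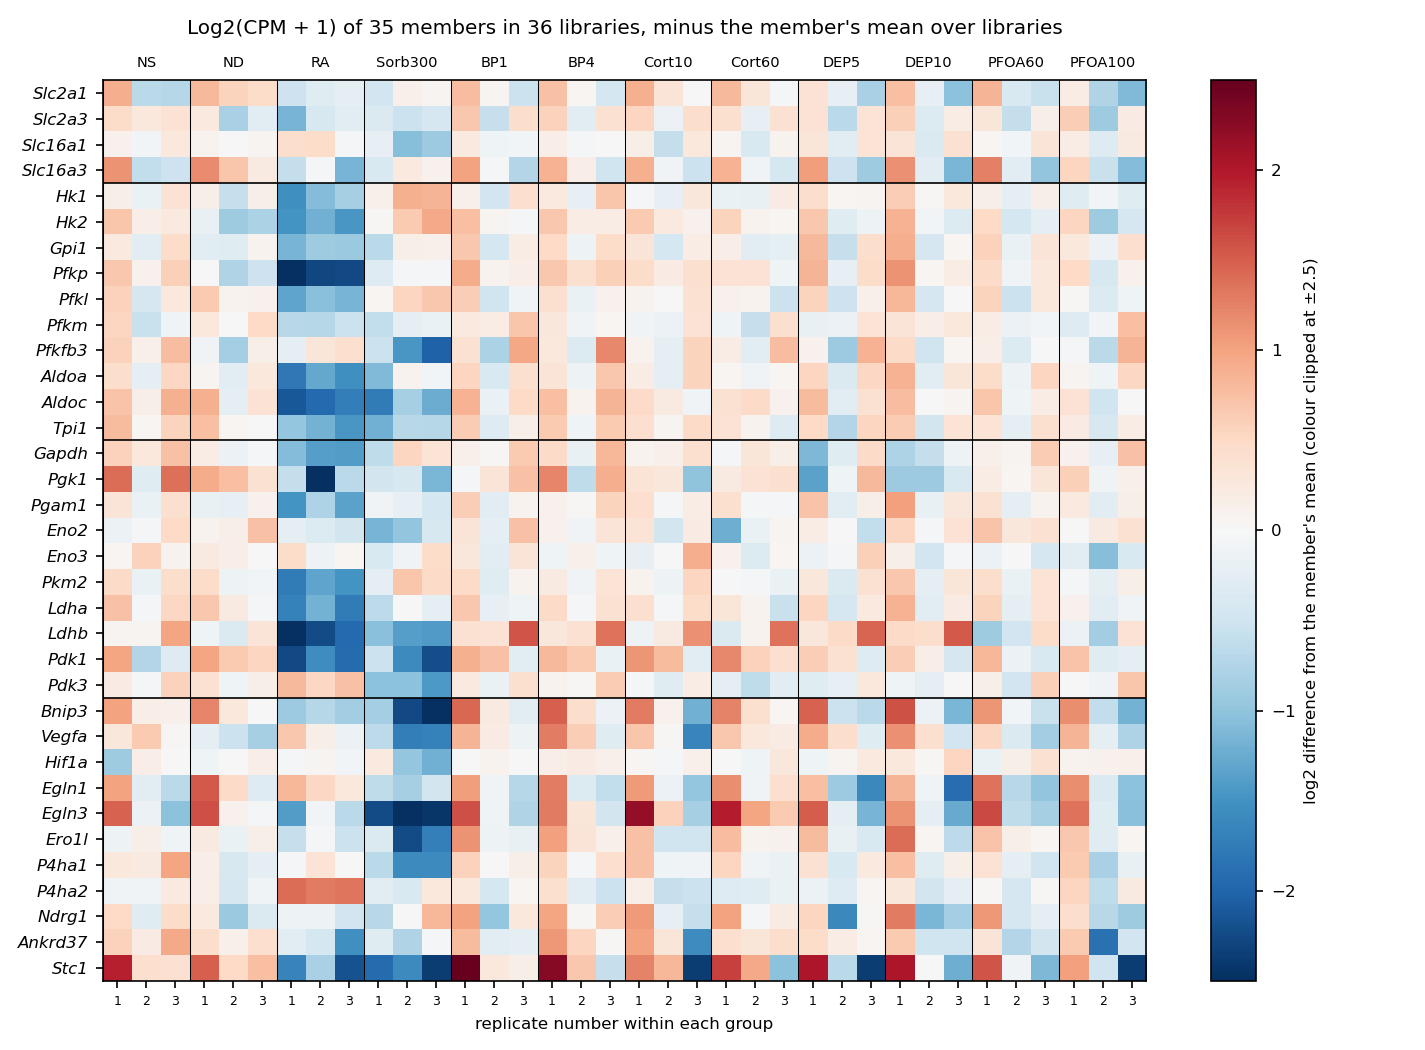
Log2(CPM + 1) of 35 members (rows, grouped by role; Eno1 is left out) in 36 libraries (columns, by group and replicate number), shown as the difference from each member's mean over all libraries. Most glycolytic enzymes have their lowest group mean in RA, several hypoxia genes such as Bnip3, Egln3 and Vegfa have theirs in Sorb300, and in ND and the toxicant groups library 1 is the highest for most hypoxia genes.

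Enzymes of nearly every step of glycolysis were lower after 72 h in RA than in NS, whereas the transporters and the hypoxia sensors did not pass the test. Of the 35 members that could be tested, 15 fell and 1 rose (edgeR quasi-likelihood test, Benjamini-Hochberg adjusted p under 0.05 over all 13498 genes tested), against 24.1% of all tested genes called, 13.8% falling and 10.3% rising. The 15 that fell comprised 8 of 10 genes of upper glycolysis and 7 of the 10 tested genes from glyceraldehyde-3-phosphate dehydrogenase to the pyruvate dehydrogenase kinases. The median log2 fold change was -1.17 over the members and 0.00 over all tested genes. Eno1, the main enolase gene, had 1 count in all 36 libraries together and was not tested, and the ends of its transcripts match 5 other annotated genes, 4 of them pseudogenes.

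The glucose transporters did not pass the test in RA. Slc2a1, the basal transporter GLUT1, stood at 1936, 645 and 627 CPM in NS and 714, 840.1 and 879 CPM in RA (log2 change -0.40 with SE 0.46, adjusted p = 0.563), and library 1 of NS stood apart from the other two. Slc2a3, the high-affinity transporter GLUT3, stood at 1161, 1010.4 and 1083 CPM in NS and 377, 635 and 698 CPM in RA (log2 change -0.93 with SE 0.35, adjusted p = 0.0522), with no overlap between the groups. The lactate transporter genes Slc16a1 (172 ± 19.7 CPM in NS, 196 ± 35.3 CPM in RA) and Slc16a3 (319 ± 236 CPM in NS, 188 ± 73.3 CPM in RA) did not pass either.

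The hexokinases trap glucose inside the cell by phosphorylating it. Hk2, the form that HIF raises, stood at 498, 347 and 364 CPM in NS and 109, 132 and 111 CPM in RA, a 3.44-fold fall (log2 change -1.78 with SE 0.34, adjusted p = 0.00027). Hk1, the widely expressed form, stood at 78.5, 63.5 and 91.5 CPM in NS and 23.9, 32.9 and 39.7 CPM in RA (log2 change -1.27 with SE 0.27, adjusted p = 0.000745). For both genes every RA library was below every NS library. Gpi1, the isomerase of the next step, fell from 556 ± 138 CPM to 248 ± 23.5 CPM (log2 change -1.17 with SE 0.33, adjusted p = 0.00876), but its call was lost without the third NS library (adjusted p = 0.0794).

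Phosphofructokinase commits sugar to glycolysis, and its platelet-type gene Pfkp had the smallest adjusted p of the members in RA. Pfkp stood at 347, 236 and 331 CPM in NS and at 26.2, 44.4 and 44.9 CPM in RA, a 7.93-fold fall (log2 change -2.99 with SE 0.31, adjusted p = 1.59e-08). The liver-type gene Pfkl fell 2.60-fold, from 311, 157 and 253 to 82.9, 102 and 93.4 CPM (log2 change -1.38 with SE 0.32, adjusted p = 0.00197). The ranges of NS and RA did not overlap for either gene. The muscle-type gene Pfkm stood at 55.2, 25.1 and 34.8 CPM in NS and 22.8, 22.4 and 25.6 CPM in RA and did not pass (log2 change -0.69 with SE 0.28, adjusted p = 0.0703). Pfkfb3, which makes the allosteric activator of phosphofructokinase, stood at 58.4 ± 13.1 CPM in NS and 46.2 ± 10.7 CPM in RA (log2 change -0.34 with SE 0.46, adjusted p = 0.631).

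The aldolases cleave the doubly phosphorylated sugar, and triose-phosphate isomerase interconverts the products. Aldoc stood at 171, 116 and 193 CPM in NS and 23.2, 26.3 and 30.8 CPM in RA, a 5.95-fold fall (log2 change -2.57 with SE 0.34, adjusted p = 8.49e-07). Aldoa stood at 3469, 2165 and 3648 CPM in NS and 741, 1059 and 889 CPM in RA, a 3.45-fold fall (log2 change -1.79 with SE 0.33, adjusted p = 0.00014). Tpi1 stood at 559.8, 335 and 477 CPM in NS and 166, 143 and 118 CPM in RA (log2 change -1.68 with SE 0.32, adjusted p = 0.0002). All 3 genes were lower in each RA library than in any NS library.

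Below the triose stage, Gapdh, often used as a reference gene, stood at 237, 193 and 266 CPM in NS and 75.2, 60.8 and 60.3 CPM in RA, a 3.54-fold fall (log2 change -1.82 with SE 0.32, adjusted p = 6.51e-05). The transcript ends of Gapdh match 130 other annotated genes, 128 of them pseudogenes, so its counts are uncertain. The same holds, with 1 to 6 matching genes each, for Ldha, Eno1, Bnip3, Aldoa, Tpi1, Pkm2, Gpi1 and Ldhb. Pgk1, the kinase that makes the first ATP of the pathway, stood at 34.6, 9.84 and 34.1 CPM in NS and 7.85, 0.986 and 7.42 CPM in RA (log2 change -2.18 with SE 0.53, adjusted p = 0.00263). Pgam1, the mutase that follows it, stood at 74.8, 52.9 and 79.1 CPM in NS and 20.6, 34.5 and 23.1 CPM in RA (log2 change -1.41 with SE 0.29, adjusted p = 0.000588). The ranges did not overlap for these 3 genes, although the second NS library of Pgk1 lay within 2 CPM of the highest RA library. The enolase genes Eno2 (9.04 ± 2.52 CPM in NS and 6.22 ± 0.541 CPM in RA) and Eno3 (22.6 ± 5.17 CPM and 20.9 ± 4.76 CPM) did not pass.

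At the end of the pathway, Pkm2, the pyruvate kinase gene under its older symbol, stood at 1447, 923 and 1410.1 CPM in NS and 309, 417 and 369 CPM in RA, a 3.45-fold fall (log2 change -1.79 with SE 0.28, adjusted p = 1.55e-05). The counts are per gene and do not separate its splice forms. Ldha, whose enzyme favours making lactate, stood at 2307, 1364 and 1989.5 CPM in NS and 431, 609 and 414 CPM in RA, a 3.89-fold fall (log2 change -1.96 with SE 0.32, adjusted p = 2.47e-05). Ldhb, which encodes the other subunit of lactate dehydrogenase, stood at 374, 377 and 709.9 CPM in NS and 52.6, 75.3 and 92.8 CPM in RA, a 6.62-fold fall (log2 change -2.73 with SE 0.50, adjusted p = 0.000191). Each RA library was below each NS library for all 3.

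The pyruvate dehydrogenase kinases keep pyruvate out of the mitochondrial cycle, and of their genes Pdk1 fell in RA. Pdk1, a HIF target, stood at 143, 43.04 and 57.2 CPM in NS and 14.3, 23.7 and 18.2 CPM in RA, a 4.36-fold fall (log2 change -2.12 with SE 0.48, adjusted p = 0.00175). Pdk3 stood at 74.8, 62.5 and 97.97 CPM in NS and 115, 94.04 and 109 CPM in RA and did not pass (log2 change 0.44 with SE 0.25, adjusted p = 0.214). The NS libraries of Pdk1 spread more than 3-fold, with library 1 the highest, yet all of them stood above the RA libraries.

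**Figure D2:**
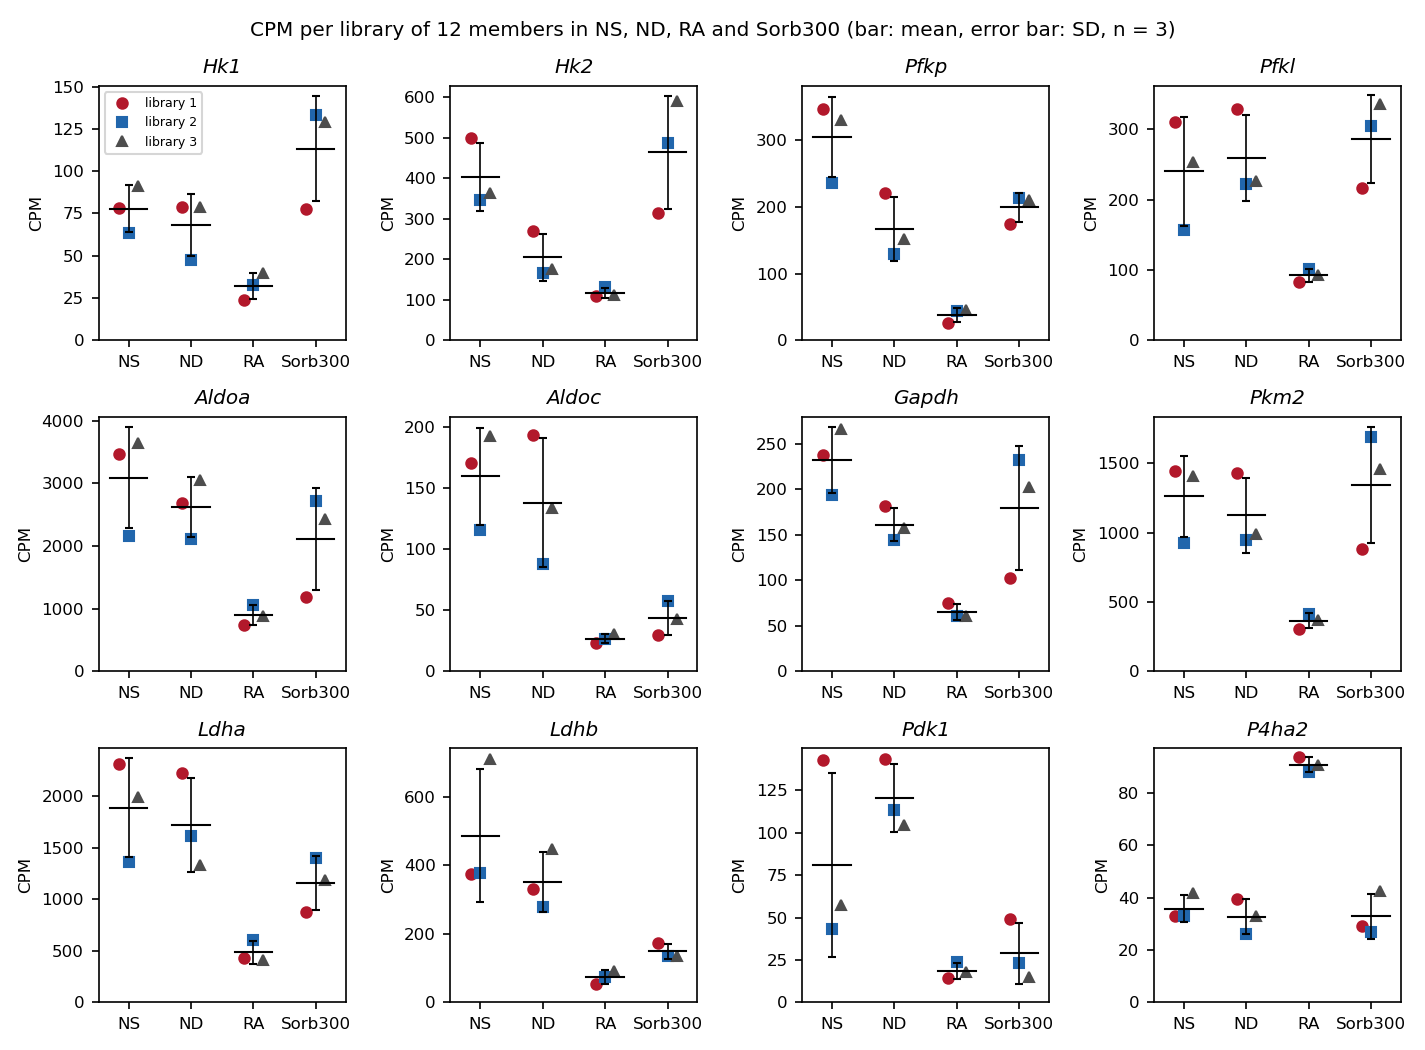
CPM (vertical axes, from 0) of 12 members in the 3 libraries of NS, ND, RA and Sorb300; points are libraries, horizontal bars means and error bars SD. Of these members all but P4ha2 are lower in every RA library than in any NS library, P4ha2 is higher, and the Sorb300 libraries are separate from NS for Pfkp, Aldoc and Ldhb and overlap NS for the others.

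Among the 11 hypoxia genes, P4ha2 alone passed in RA, and it rose. P4ha2 encodes a catalytic subunit of the collagen prolyl hydroxylase, an enzyme of collagen maturation. It stood at 32.9, 32.96 and 41.8 CPM in NS and 93.8, 88.1 and 90.6 CPM in RA, a 2.53-fold rise (log2 change 1.34 with SE 0.29, adjusted p = 0.000815), with no overlap. Its partner gene P4ha1 stood at 57.1 ± 18.4 CPM in NS and 42.1 ± 6.59 CPM in RA and did not pass (log2 change -0.45 with SE 0.34, adjusted p = 0.358). Hif1a, the oxygen-regulated subunit itself, stood at 55.2, 115 and 104 CPM in NS and 102, 109 and 98.6 CPM in RA (log2 change 0.16 with SE 0.25, adjusted p = 0.676). The remaining hypoxia genes (Egln1, Egln3, Bnip3, Vegfa, Ero1l, Ndrg1, Ankrd37 and Stc1) had log2 fold changes between -3.70 and 0.37 with SE of 0.47 to 1.51. Such SE limit the size of change that could pass. The median log2 fold change was -0.45 over the 11 hypoxia genes, -1.53 over upper and -1.81 over lower glycolysis. The difference between these roles was not tested.

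Markers of other cell types moved with RA. Of 13 tested markers of extraembryonic endoderm 11 rose, and their summed level on raw totals was 3097 to 5377 CPM in RA against 1151 to 1280.5 CPM in NS. Among them Ttr was at 0 in all NS libraries and at 39.9, 35.8 and 9.02 CPM in RA. Of 9 tested fibroblast markers 5 rose and 1 fell (sum 1186 to 1219 CPM in RA, 582 to 730.3 in NS), and all 10 stem cell markers fell. Of 4 tested neural markers 0 rose and Tubb3 fell (log2 change -1.33 with SE 0.42, adjusted p = 0.0206), with sums of 51.6 to 108 CPM in RA and 55.8 to 109 CPM in NS. Counts of ribosomal protein genes were 8.31 to 10.1% of the total in RA and 14.1 to 17.9% in NS. The part of these differences in the fall of the glycolytic genes was not tested.

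Both RA and ND lacked LIF, so RA against ND holds no difference in LIF, and any solvent given with RA is part of the comparison. Here 14 members fell and P4ha2 rose, against 18.2% of tested genes called, 10.1% falling and 8.05% rising, and this comparison shares the RA libraries with the previous one. The median log2 fold change was -1.09 over the members and -0.04 over all tested genes. Pdk1 fell 6.50-fold from 143, 113 and 105 CPM in ND (log2 change -2.70 with SE 0.48, adjusted p = 0.000181), Aldoc 5.15-fold from 193, 88.04 and 134 CPM (log2 change -2.37 with SE 0.33, adjusted p = 3.14e-06) and Pfkp 4.35-fold from 221, 129 and 152 CPM (log2 change -2.12 with SE 0.30, adjusted p = 4.42e-06). None of these ND ranges overlapped RA. The other members that fell were Hk1, Pfkl, Pfkm, Aldoa, Tpi1, Gapdh, Pgk1, Pgam1, Pkm2, Ldha and Ldhb, with log2 fold changes between -2.26 and -0.94. Hk2 and Gpi1 did not pass against ND (Hk2 270.1, 166 and 177 CPM in ND, log2 change -0.80 with SE 0.34, adjusted p = 0.0976; Gpi1 adjusted p = 0.0728), and the call of Pfkm was lost in 4 of 6 fits that left out a library and that of Pgk1 in 1 (without RA library 2).

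Further genes of carbohydrate metabolism and of the hypoxia response were read against the same background of 13.8% falling and 10.3% rising in RA. Of 34 tested genes from a further list of glycolysis, gluconeogenesis and pyruvate metabolism, 11 fell and 0 rose. They included Pdhb, a subunit of pyruvate dehydrogenase (73.1, 90.3 and 77.6 CPM in NS, 35.02, 35.5 and 35.05 in RA, log2 change -1.19 with SE 0.22, adjusted p = 0.000112), the phosphoglucomutase gene Pgm2 (log2 change -1.87 with SE 0.37, adjusted p = 0.000353), the pyruvate dehydrogenase phosphatase subunit Pdp2 (log2 change -0.98 with SE 0.24, adjusted p = 0.00328) and the sugar transporter gene Slc2a8 (log2 change -1.24 with SE 0.31, adjusted p = 0.00372). Of 12 tested pentose phosphate genes, 5 fell and 0 rose, among them Prps1, which makes the ribose precursor of nucleotides (449.8, 444 and 630.3 CPM in NS, 82.1, 151 and 187 in RA, log2 change -1.86 with SE 0.27, adjusted p = 4.22e-06), Taldo1 (log2 change -1.16 with SE 0.25, adjusted p = 0.000906), Prps2 (log2 change -1.15 with SE 0.25, adjusted p = 0.00102) and transketolase, Tkt (log2 change -1.07 with SE 0.25, adjusted p = 0.00227). The median log2 fold change was -0.66 for the first list and -0.82 for the second. Of 50 tested further hypoxia genes, 9 fell and 3 rose, a share of calls near the 24.1% of all tested genes, with a median log2 fold change of -0.40. Tpd52 (log2 change -1.35 with SE 0.24, adjusted p = 8.66e-05), the cytokine gene Mif (log2 change -1.59 with SE 0.30, adjusted p = 0.000178), the respiratory-chain-associated gene Ndufa4l2 (log2 change -3.92 with SE 0.77, adjusted p = 0.000332) and Fam162a (log2 change -1.29 with SE 0.31, adjusted p = 0.00244) had the smallest adjusted p among them, and all 4 fell. Against ND, 2 of the 34 further glycolysis genes rose and 8 fell, 0 of the 12 pentose phosphate genes rose and 4 fell, and 4 of the 50 further hypoxia genes rose and 10 fell, against 8.05% of all tested genes rising and 10.1% falling.

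Because HIF binds a short core sequence, the promoters of members were read for it. The letters searched were ACGTG and GCGTG on both strands in the 250 bases before the RefSeq start (build GRCm38.p6), taking the outermost start of each gene; a run of CACGTG holds ACGTG on both strands. RefSeq promoters were found for 33 members, of which 18 (54.5%) held ACGTG, 18 held GCGTG and 26 (78.8%) held at least 1 of these. Among the 9500 tested genes with a promoter, 21.8% held ACGTG, 45.7% GCGTG and 56.8% either. A match describes letters and is not a binding site. The promoters of the 4 members with the smallest adjusted p in RA are shown, with that of Bnip3, chosen after its values were seen as a hypoxia gene that differed by replicate number; capitals mark the searched letters, which read CACGT and CACGC where they lie on the opposite strand. They lie at chr13:6648772-6649021 (minus strand) for Pfkp, chr11:78322823-78323072 (plus) for Aldoc, chr9:59656326-59656575 (plus) for Pkm2, chr7:46845554-46845803 (plus) for Ldha and chr7:138909507-138909756 (minus) for Bnip3.
Pfkp: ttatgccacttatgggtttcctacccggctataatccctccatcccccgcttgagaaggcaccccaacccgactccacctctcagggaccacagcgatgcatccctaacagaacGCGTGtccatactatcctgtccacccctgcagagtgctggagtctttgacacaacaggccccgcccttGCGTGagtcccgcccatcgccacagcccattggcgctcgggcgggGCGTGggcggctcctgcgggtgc
Aldoc: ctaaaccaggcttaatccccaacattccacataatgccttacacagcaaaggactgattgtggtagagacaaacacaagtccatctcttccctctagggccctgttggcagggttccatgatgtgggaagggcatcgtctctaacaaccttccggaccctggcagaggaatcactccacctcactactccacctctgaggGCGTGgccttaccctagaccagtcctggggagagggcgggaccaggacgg
Pkm2: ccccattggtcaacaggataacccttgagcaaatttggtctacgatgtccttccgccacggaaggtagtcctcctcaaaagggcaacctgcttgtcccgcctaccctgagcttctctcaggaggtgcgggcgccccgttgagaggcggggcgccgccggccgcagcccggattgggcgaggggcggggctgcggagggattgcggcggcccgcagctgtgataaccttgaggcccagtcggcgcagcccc
Ldha: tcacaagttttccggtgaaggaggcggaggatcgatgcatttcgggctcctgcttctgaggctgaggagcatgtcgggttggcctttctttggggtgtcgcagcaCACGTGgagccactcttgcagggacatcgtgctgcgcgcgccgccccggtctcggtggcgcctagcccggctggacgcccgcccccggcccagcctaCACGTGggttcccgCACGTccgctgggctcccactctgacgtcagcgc
Bnip3: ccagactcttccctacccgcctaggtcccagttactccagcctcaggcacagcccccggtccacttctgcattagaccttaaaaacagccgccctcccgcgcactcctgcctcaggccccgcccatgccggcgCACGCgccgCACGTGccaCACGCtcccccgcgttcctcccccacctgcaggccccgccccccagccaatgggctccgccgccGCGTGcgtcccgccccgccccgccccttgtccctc
The Ldha window held CACGTG in 2 places and 1 further CACGT, the Bnip3 window held it once beside 3 matches to GCGTG, and the Pfkp window held GCGTG in 3 places. Aldoc had 1 match to GCGTG and the Pkm2 window had none.

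After 72 h in sorbitol with LIF, members of every role fell, among them 5 hypoxia genes, while both hexokinases and pyruvate kinase did not pass the test. In Sorb300 against NS, which uses the same NS libraries as the RA comparison, 14 members fell and 0 rose, against 30.4% of tested genes called, 15.2% falling and 15.1% rising. The 14 comprised 5 of 11 hypoxia genes, 3 of 10 upper glycolysis genes, 5 of the 10 tested lower genes and 1 of 4 transporters. The median log2 fold change was -0.80 over the members and 0.00 over all tested genes. Leaving out each library in turn gave 7 to 14 calls, with 7 without Sorb300 library 2 or 3 and 8 without NS library 3. Calls over all genes went from 4102 to 2949, 3053 and 2962 in these 3 fits, in that order, and to 4922 without Sorb300 library 1. Aldoc, P4ha1, Pdk3, Pfkfb3 and Tpi1 passed each time.

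Aldoc stood at 30.1, 57.9 and 43.2 CPM in Sorb300, all below the lowest NS library, a 3.66-fold fall (log2 change -1.87 with SE 0.33, adjusted p = 5.61e-05). Pdk3 stood at 31.3, 31.5 and 23.4 CPM in Sorb300, a 2.71-fold fall (log2 change -1.44 with SE 0.26, adjusted p = 9.66e-05). P4ha1 stood at 46.9, 45.99 and 78.3 CPM in NS and 24.3, 12.4 and 12.4 CPM in Sorb300 (log2 change -1.78 with SE 0.36, adjusted p = 0.000317). The groups did not overlap for Pdk3 or P4ha1. Tpi1 stood at 141, 200.4 and 197 CPM (log2 change -1.35 with SE 0.32, adjusted p = 0.00137). Pfkfb3 stood at 60.8, 44.3 and 70.1 CPM in NS and 27.6, 14.1 and 9.19 CPM in Sorb300, with library 1 the highest of the latter (log2 change -1.74 with SE 0.49, adjusted p = 0.00724). Both also lay below every NS library.

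Several hypoxia genes fell in Sorb300 with calls that depended on individual libraries. Egln3, an oxygen-sensing prolyl hydroxylase that HIF itself induces, stood at 89.4, 28.3 and 14.9 CPM in NS and 5.88, 4.60 and 5.05 CPM in Sorb300 (log2 change -3.06 with SE 1.05, adjusted p = 0.0286). All Sorb300 libraries were below NS, but NS library 1 was far above the others, and without it the call was lost (log2 change -2.07, adjusted p = 0.163). Bnip3, a mediator of mitophagy, stood at 294, 163 and 158 CPM in NS and 80.1, 29.6 and 22.1 CPM in Sorb300 (log2 change -2.20 with SE 0.80, adjusted p = 0.0388), and without NS library 1 its adjusted p was 0.105. Leaving out a library ended the call of Egln3 in 4 of 6 fits and that of Bnip3 in 5 of 6. Vegfa, the angiogenic growth factor, stood at 26.3, 34.7 and 22.1 CPM in NS and 13.2, 5.82 and 5.97 CPM in Sorb300 (log2 change -1.68 with SE 0.52, adjusted p = 0.0143), and its call was lost without NS library 2 or without Sorb300 library 2 or 3. Stc1, a secreted glycoprotein, had 104 counts in the NS libraries together and 5 in Sorb300 (log2 change -4.50 with SE 1.69, adjusted p = 0.0447), and its call was lost whichever library was left out. Hif1a stood at 123, 52.6 and 44.6 CPM in Sorb300 and Egln1 at 17.6, 15.3 and 20.2 CPM, and neither passed.

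The other members that fell in Sorb300 were enzymes and a transporter. Ldhb stood at 174, 137 and 135 CPM, below all NS libraries (log2 change -1.71 with SE 0.48, adjusted p = 0.00741). Pgk1 stood at 8.82, 9.21 and 5.05 CPM (log2 change -1.72 with SE 0.52, adjusted p = 0.012). Pdk1 stood at 49.1, 23.02 and 14.7 CPM, overlapping NS (log2 change -1.45 with SE 0.47, adjusted p = 0.0188), and without NS library 1 its log2 fold change shrank to -0.78 (adjusted p = 0.21). Eno2, the neuronal enolase, stood at 7.31, 7.87 and 11.9 CPM in NS and 3.13, 3.63 and 5.97 CPM in Sorb300 (log2 change -1.15 with SE 0.40, adjusted p = 0.0296). Slc16a1, the lactate transporter MCT1, stood at 172, 152 and 192 CPM in NS and 137, 75.4 and 83.6 CPM in Sorb300 (log2 change -0.80 with SE 0.24, adjusted p = 0.0128). Eno2 and Slc16a1 each lost the call in 3 of 6 leave-one-out fits, Pdk1 in 3, Pgk1 in 2 and Ldhb in 1. Hk1, Hk2, Pfkl and Pkm2 had log2 fold changes of 0.54, 0.20, 0.25 and 0.09 and did not pass.

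**Figure D3:**
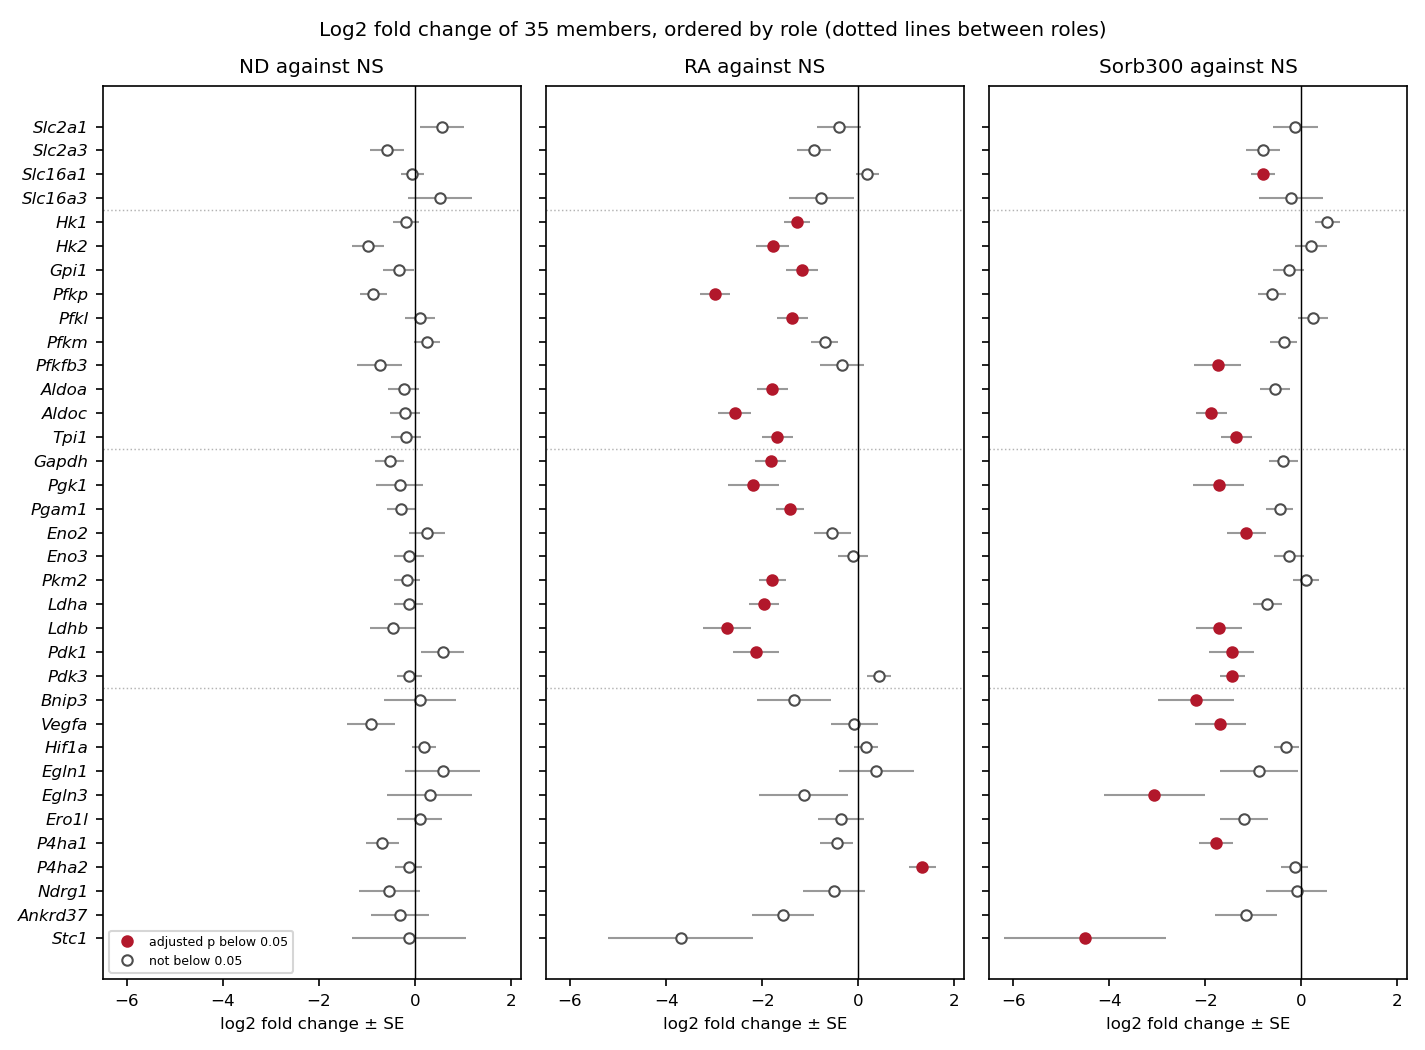
Log2 fold change ± SE (horizontal axes) of 35 members in ND, RA and Sorb300, each against NS; rows are ordered by role with dotted lines between roles, and filled points passed at an adjusted p below 0.05. The filled points are 0 in ND, 16 in RA and 14 in Sorb300, with those in RA mostly among the enzymes and those in Sorb300 spread over enzymes and hypoxia genes.

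Marker and quality values in Sorb300 also differed from NS. Of 13 tested extraembryonic endoderm markers 5 rose and 1 fell. Their summed level on raw totals was 2291 to 4071 CPM and came largely from Sparc (1877, 2788 and 3729 CPM on TMM-scaled totals), while Ttr had 2 counts in all. Of 10 stem cell markers 2 rose and 1 fell. Of 4 tested neural markers Tubb3 rose (66.5, 55.8 and 50.97 CPM in NS, 104, 313 and 306 in Sorb300, log2 change 2.06 with SE 0.42, adjusted p = 0.000386) and Nes fell (log2 change -1.69 with SE 0.61, adjusted p = 0.0341). The 8 neural markers summed to 122 to 305 CPM in Sorb300 and 55.8 to 109 CPM in NS, while Neurog2 was at 0 in both groups. Of 9 tested fibroblast markers S100a4 rose (log2 change 2.68 with SE 1.03, adjusted p = 0.0465) and Col1a2 (log2 change -2.002 with SE 0.47, adjusted p = 0.0014) and Thy1 (log2 change -1.18 with SE 0.39, adjusted p = 0.0192) fell, with sums of 684 to 847 CPM in Sorb300 and 582 to 730.3 CPM in NS and with Postn, Lum and Dcn at 0 in Sorb300 (3, 2 and 8 counts in NS). Counts of ribosomal protein genes were 8.79 to 10.4% of the total. Library 1 of Sorb300 stood above libraries 2 and 3 at Bnip3, Ero1l (32.9, 8.24 and 12.4 CPM) and Hif1a. The part of these differences in the falls was not tested.

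The fall did not extend to every hypoxia gene. Of the 50 tested further hypoxia genes, 14 fell and 10 rose in Sorb300, against 15.2% of all tested genes falling and 15.1% rising, and the 4 with the smallest adjusted p all rose. They were Cited2, a HIF target that competes with HIF for its coactivator (63.5, 60.01 and 33.6 CPM in NS, 188, 210.3 and 290.4 in Sorb300, log2 change 2.13 with SE 0.33, adjusted p = 1.18e-05), the creatine transporter Slc6a8 (log2 change 1.5 with SE 0.26, adjusted p = 5.08e-05), Jmjd6 (log2 change 1.35 with SE 0.24, adjusted p = 6.39e-05) and the prolyl hydroxylase Egln2 (log2 change 1.70 with SE 0.31, adjusted p = 8.00e-05). Of the 34 further glycolysis genes 5 rose and 7 fell, shares near that background. Those with the smallest adjusted p were Pgm2 (log2 change -2.26 with SE 0.38, adjusted p = 3.36e-05), pyruvate carboxylase, Pcx (16.3, 17.7 and 19.1 CPM in NS, 33.3, 73.4 and 75.8 in Sorb300, log2 change 1.77 with SE 0.31, adjusted p = 5.59e-05), Dlat (log2 change -0.81 with SE 0.24, adjusted p = 0.00889) and Ldhc (log2 change -1.45 with SE 0.43, adjusted p = 0.00984). Of 12 pentose phosphate genes Pgd rose (log2 change 1.37 with SE 0.27, adjusted p = 0.000253) and Prps1 (log2 change -1.04 with SE 0.26, adjusted p = 0.00261) and Prps2 (log2 change -1.37 with SE 0.26, adjusted p = 0.000116) fell, again a share of calls that is not above the background. Median log2 fold changes were -0.37 for the further hypoxia, -0.47 for the further glycolysis and -0.14 for the pentose phosphate genes, against 0.00 over all tested genes.

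Whether the members differ between the treatments was tested directly as Sorb300 against RA, a comparison added after the data were seen that uses no NS library. It called 16 members, against 38.1% of all tested genes called, 20.6% higher and 17.5% lower. In Sorb300 10 members were higher and 6 lower, and the share of members that were lower was near the background. The 10 were all glycolytic, namely Hk1, Hk2, Gpi1, Pfkp, Pfkl, Aldoa, Gapdh, Pgam1, Pkm2 and Ldha. Pfkp stood at 175, 213 and 211 CPM in Sorb300, 5.20-fold above RA (log2 change 2.38 with SE 0.31, adjusted p = 2.37e-07). Pkm2 stood at 879.8, 1691 and 1456 CPM, 3.68-fold above RA (log2 change 1.88 with SE 0.28, adjusted p = 2.33e-06), and Hk2 at 314, 486 and 589 CPM, 3.95-fold above (log2 change 1.98 with SE 0.35, adjusted p = 2.92e-05). No Sorb300 library overlapped RA for these. The 6 that were lower were Pdk3 (log2 change -1.88 with SE 0.27, adjusted p = 1.09e-06), P4ha2 (log2 change -1.48 with SE 0.29, adjusted p = 0.000118), Slc16a1, P4ha1, Vegfa and Pfkfb3, all below the RA libraries. The calls of Gpi1, Pfkfb3, Vegfa and Pgam1 were lost in 1 or more fits that left out a library (5, 4, 2 and 1 of 6).

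Isozyme shares differed between groups in several families; they are given as a description, as percent of the family's counts per library, and are read only between groups. Pfkp made up 48.7, 56.5 and 53.5% of phosphofructokinase counts (Pfkp, Pfkl and Pfkm) in NS, 37.1, 33.2 and 35.2% in ND, 42.02, 38.8 and 36.3% in Sorb300 and 19.9, 26.4 and 27.4% in RA. Pdk3 made up 34.4, 59.2 and 63.1% of Pdk1 and Pdk3 counts in NS and 88.97, 79.9 and 85.7% in RA. P4ha2 made up 41.2, 41.7 and 34.8% of P4ha1 and P4ha2 counts in NS, 71.2, 63.96 and 70.1% in RA and 54.5, 68.5 and 77.5% in Sorb300. The NS range was separate from that of RA in these 3 families. It was also separate for Aldoc among Aldoa and Aldoc (4.69 to 5.07% in NS, 2.42 to 3.35% in RA) and for Egln3 among Egln1 and Egln3 (46.5 to 60.9%, 18.3 to 42.3%). NS and RA overlapped in the other families computed, for Slc2a1 (36.7 to 62.5%, 55.7 to 65.5%), Hk1 (13.6 to 20.1%, 18.0 to 26.4%), Ldhb (13.9 to 26.3%, 10.9 to 18.3%) and Slc16a3 (49.7 to 77.5%, 43.5 to 54.9%). In Sorb300 the larger P4ha2 share accompanied a lower P4ha1 level, and in RA a higher P4ha2 level.

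**Figure D4:**
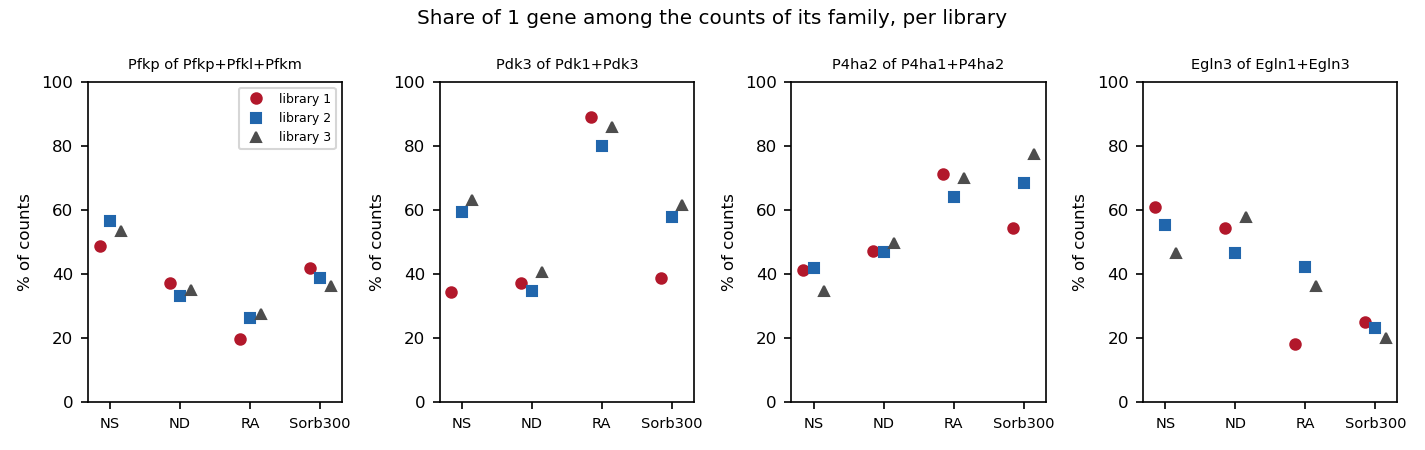
Percent of a family's counts (vertical axes, 0 to 100) taken by Pfkp, Pdk3, P4ha2 and Egln3 in each library of NS, ND, RA and Sorb300; points are libraries. The Pfkp share is 48.7 to 56.5% in NS and 19.9 to 27.4% in RA, and the P4ha2 share is 34.8 to 41.7% in NS and 63.96 to 71.2% in RA.

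Withdrawal of LIF alone, ND against NS, called 0 members in edgeR's quasi-likelihood test, against 1.19% of all tested genes (0.933% lower and 0.259% higher); 2 members had an unadjusted p under 0.05, and DESeq2 called 0. The median log2 fold change was -0.17 over the members and 0.01 over all tested genes. Pfkp stood at 221, 129 and 152 CPM in ND (log2 change -0.87 with SE 0.29, adjusted p = 0.152) and Hk2 at 270.1, 166 and 177 CPM (log2 change -0.98 with SE 0.34, adjusted p = 0.17). For both, every ND library was below every NS library. With the replicate number as a block, which the libraries of these groups share, Hk2 (log2 change -0.99, adjusted p = 0.00955), Pfkp (log2 change -0.88, adjusted p = 0.0194) and Vegfa (log2 change -0.96, adjusted p = 0.0433) fell, beside 552 of all 13498 tested genes called in that fit. Vegfa stood at 18.1, 14.5 and 11.7 CPM in ND. Slc2a1 stood at 1799, 1516 and 1411 CPM in ND, within the NS range and with a tighter spread (log2 change 0.56 with SE 0.46, adjusted p = 0.632). Of the other lists, 0 of 34 further glycolysis, 0 of 12 pentose phosphate and 0 of 50 further hypoxia genes passed.

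No member passed the test in any toxicant group, at either dose. In each of the 8 comparisons of BP1, BP4, Cort10, Cort60, DEP5, DEP10, PFOA60 and PFOA100 with NS, which share the NS libraries, edgeR called 0 of 35 members, and DESeq2 also called 0. The share of all tested genes called was 0.0741% in PFOA60 (0.0667% lower) and 0% in the other groups. Over these 280 values 6 had an unadjusted p under 0.05, and 276 lay within 1 unit of 0 on the log2 scale, with a median SE of 0.33. The 6 were Pgk1 in Cort10 and DEP10, Gapdh in DEP5 and DEP10, Pdk3 in Cort60 and Eno3 in PFOA100, all below NS. Pgk1 stood at 6.20, 6.20 and 9.26 CPM in DEP10 (log2 change -1.85 with SE 0.53, adjusted p = 1) and Gapdh at 92.7, 106 and 147 CPM (log2 change -1.01 with SE 0.31, adjusted p = 1), both without overlap with NS. Higher against lower dose (BP4 against BP1, Cort60 against Cort10, DEP10 against DEP5, PFOA100 against PFOA60) called 0 members, with 0 of 140 values at an unadjusted p under 0.05 and log2 fold changes from -0.86 to 0.53. The F tests among the 8 toxicant groups and of unequal dose effects also called 0 members, with 0 at an unadjusted p under 0.05. All 4 dose comparisons and both F tests called 0% of tested genes. The SE of the 280 values against NS ran from 0.24 to 1.25, which limits the size of change that could pass.

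In the toxicant libraries Ldha and Pfkp stayed above their RA levels. In these 24 libraries the lowest, median and highest were 937, 1548 and 2527 CPM for Ldha and 165, 279.7 and 476 CPM for Pfkp. Every one of these libraries was above the RA libraries for both genes. Of the members that fell in RA, only Gapdh and Pgk1 had toxicant libraries that reached RA levels. Their lowest toxicant libraries stood at 73.3 CPM (Gapdh) and 4.33 CPM (Pgk1), and RA library 1 at 75.2 and 7.85 CPM. Ldhb had toxicant group means from 315 CPM (PFOA60) to 676 CPM (DEP10). Its libraries stood at 194, 256 and 494 CPM in PFOA60 and 503, 488 and 1038 CPM in DEP10, with library 3 the highest in each.

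In the toxicant groups the hypoxia genes were spread by replicate number, with library 1 the highest for most of them. Over all 36 libraries with the group in the model, a test added after this pattern was seen called 22 of 35 members between replicate 1 and replicates 2 and 3, of which 21 were higher in replicate 1, against 11.8% of all tested genes called, 6.36% higher and 5.49% lower. The 21 comprised 10 of 11 hypoxia genes, 3 of 4 transporters, 5 of 10 upper and 3 of 10 tested lower glycolysis genes, and Ldhb was lower. An F test over the 3 replicate numbers called 31 of 35 members, against 31.4% of all tested genes. If a number marks a shared experiment, this compares 3 experiments, and the p-values, which take the libraries as independent, are too small.

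Bnip3 had replicate 1 libraries at 312, 377 and 439 CPM over the 8 toxicant groups (lowest, median, highest), replicate 2 at 94.3, 148 and 198 and replicate 3 at 62.5, 94.3 and 151 (log2 change 1.44 with SE 0.13, adjusted p = 5.04e-09). The replicate 1 range was separate from the others. Egln3 had 70.1, 94.7 and 148 CPM in replicate 1, 19.8, 28.1 and 63.8 in replicate 2 and 12.7, 17.3 and 49.96 in replicate 3 (log2 change 1.69 with SE 0.18, adjusted p = 5.54e-07). Egln1, the main prolyl hydroxylase of HIF alpha, had 47.7, 61.6 and 73.4 CPM in replicate 1, 14.5, 23.6 and 26.2 in replicate 2 and 6.79, 13.8 and 37.7 in replicate 3 (log2 change 1.48 with SE 0.15, adjusted p = 9.31e-09). In all 8 toxicant groups replicate 1 was the highest for all 3 genes.

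The lactate exporter gene Slc16a3 had 395, 523 and 650.2 CPM in replicate 1, 184, 239 and 302 in replicate 2 and 121, 154 and 199.7 in replicate 3 of the toxicant groups (log2 change 1.18 with SE 0.15, adjusted p = 5.06e-06). Slc2a1 had 1164, 1740.1 and 1916 CPM in replicate 1, 608, 975 and 1291 in replicate 2 and 480.3, 704 and 1019.6 in replicate 3 (log2 change 0.80 with SE 0.12, adjusted p = 8.65e-05). Replicate 1 of both was the highest in 8 of 8 toxicant groups, in NS and in ND. Vegfa (log2 change 0.90 with SE 0.12, adjusted p = 2.35e-06), Pdk1 (log2 change 0.77 with SE 0.11, adjusted p = 1.69e-05), Ero1l, an oxidase of protein folding (log2 change 0.84 with SE 0.13, adjusted p = 2.52e-05), and Stc1 (log2 change 2.22 with SE 0.30, adjusted p = 1.07e-05) were also higher in replicate 1. Hif1a had 91.8, 106 and 124 CPM in replicate 1, 95.8, 109 and 119 in replicate 2 and 102, 118 and 149 in replicate 3 and did not pass (log2 change -0.05 with SE 0.11, adjusted p = 0.83).

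In RA and Sorb300 replicate 1 was not the highest for every gene. In RA, Slc2a1 stood at 714, 840.1 and 879 CPM and Egln3 at 11.3, 29.9 and 19.5 CPM, with replicate 1 the lowest, and in Sorb300 Slc2a1 stood at 740.1, 1121 and 1087 CPM, also with replicate 1 the lowest, although replicate 1 of Sorb300 was the highest for Pdk1, Egln3 and Bnip3. The difference between groups in this order was not tested. Fitted on the 24 toxicant libraries alone, 27 members passed, 25 of them higher in replicate 1, beside 3019 of all 12796 genes tested in that fit. On the 12 libraries of NS, ND, RA and Sorb300 0 members passed, beside 3 of all 12871 genes tested, so this 0 matches the background. Of the 50 further hypoxia genes 21 were higher in replicate 1 and 0 lower, among them Loxl2 (log2 change 0.87, adjusted p = 4.74e-07), Kdm3a (log2 change 0.75, adjusted p = 4.22e-06), Bhlhe40 (log2 change 1.21, adjusted p = 2.15e-05) and Ddit4 (log2 change 1.16, adjusted p = 3.40e-05). Of the 34 further glycolysis genes 1 was higher and 3 lower, and the background was 6.36% higher and 5.49% lower. Counts of ribosomal protein genes were 11.6 to 14.9% of the total in replicate 1 of NS and the toxicant groups, 13.6 to 15.2% in replicate 2 and 16.8 to 19.8% in replicate 3, and the part of this in the pattern was not tested.

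**Figure D5:**
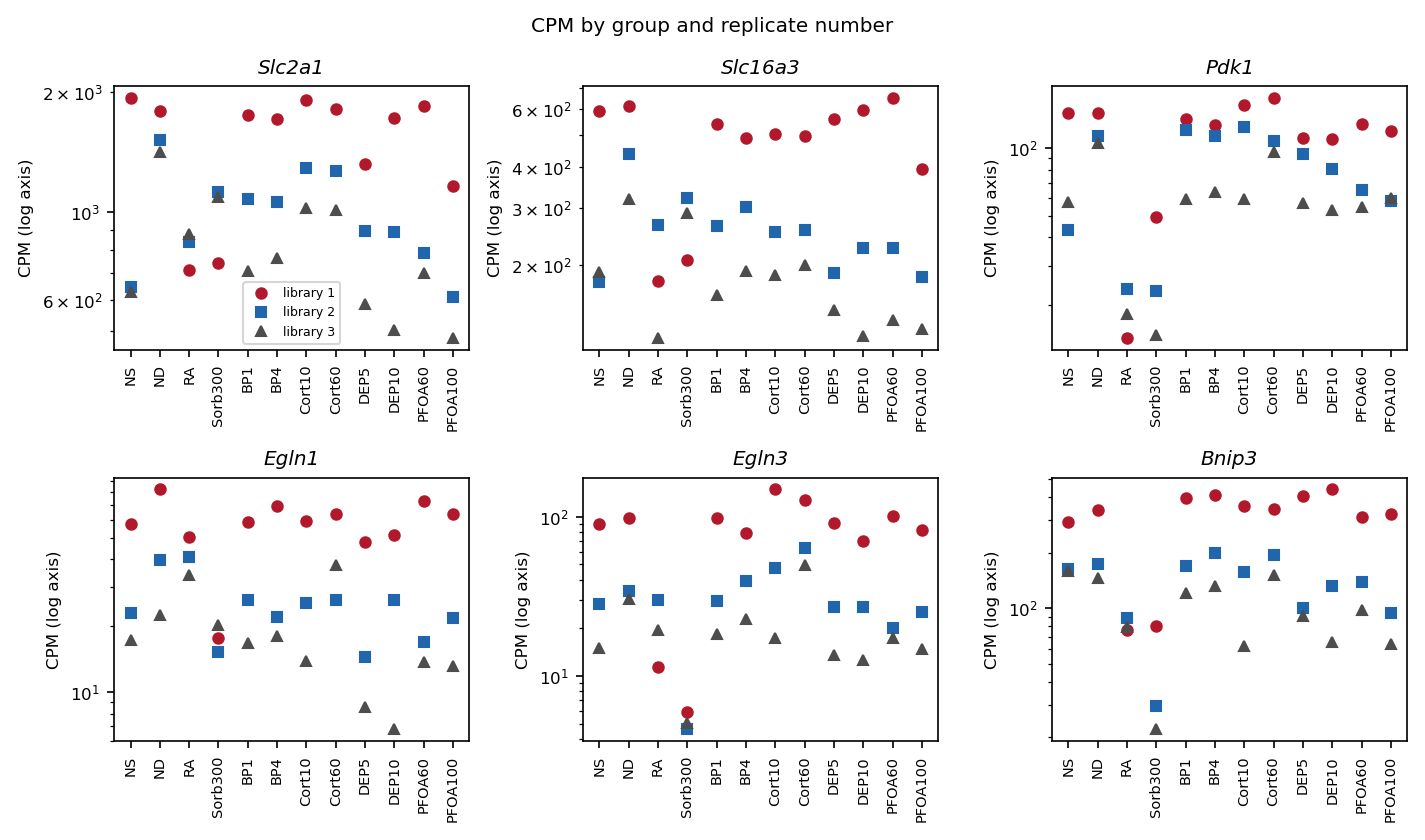
CPM (log axes) of Slc2a1, Slc16a3, Pdk1, Egln1, Egln3 and Bnip3 by group; circles, squares and triangles are replicates 1, 2 and 3. Replicate 1 is the highest in NS, ND and all 8 toxicant groups for each gene, and in RA it is the lowest for each gene shown other than Slc16a3 and Egln1.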

How the data were processed

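Gene counts of 36 libraries (3' end sequencing with a Lexogen QuantSeq kit, per the labels' protocols) were taken from 11 deposited tables, which the authors left as raw read counts per gene. Per the submitters' processing notes, CASAVA 1.8.2, STAR, HTSeq, edgeR and the build mm9 were used; no source used here gives their roles, the annotation or the strand setting. The deposited tables also give the authors' log2 fold change and FDR (adjusted p-value). The members and lists were chosen with earlier results of these data known.

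Groups and replicate numbers came from the labels. Genes passing filterByExpr (minimum count 10) numbered 13498, including 35 of 36 members. Counts were scaled by TMM and fitted in a single model of 12 groups by edgeR 4.0.16 in R 4.3.3 (robust quasi-likelihood, 24 residual degrees of freedom), with Benjamini-Hochberg adjustment over all tested genes and a threshold of 0.05. Each SE was obtained as the size of the log2 change over the root of its F statistic. Totals were 1848254 to 7288084 counts, and 3 counts equal 0.412 to 1.62 CPM on raw totals. Scripts were tested on simulated data. Replicates differed by more than counting error (chi-square per degree of freedom 5.15 to 63.0). Same-number libraries deviated together (every pair over 0.1) in 10 of 17 pairwise comparisons, among them ND against NS (correlations 0.22, 0.18 and 0.16) but not RA or Sorb300 against NS or RA against ND. The pairing of ND with NS comes from this check and the shared numbers in the labels. Alternatives were RLE scaling, no filter, the replicate number as a block, DESeq2 1.42.0, 2-group fits, leaving out each library and leaving out all libraries numbered 3. All members are named at least once, but those that did not pass are not listed in every comparison. Members that passed against NS were given with values, and those that passed in RA against ND with values or by name and range. Up to 4 genes per further list with the smallest adjusted p were named. Promoters were printed for the 4 members with the smallest adjusted p in RA, and for Bnip3. Transcript ends (300 bases, GENCODE M21) were compared with BLAST 2.17.0 at 95% identity over 100 bases: 9 members (Gapdh, Ldha, Eno1, Bnip3, Aldoa, Tpi1, Pkm2, Gpi1 and Ldhb) matched other genes, so their counts are uncertain. No genome of build mm9 and no protein sequences were used here.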

Additional observations from a re-analysis of the deposited data

How the results depend on the processing

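The count of members called kept within 1.5 times its reported value under RLE scaling, no filter and DESeq2 in RA against NS (16 in each), Sorb300 against NS (14, 12 and 15), RA against ND (15 in each) and Sorb300 against RA (16 in each). With the replicate block the counts were 21 for RA against NS, 19 for Sorb300 against NS, 23 for RA against ND, 22 for Sorb300 against RA and 3 for ND against NS, while the calls over all 13498 genes rose as well, from 3259 to 4277, 4102 to 4983, 2450 to 3294, 5146 to 6071 and 161 to 552. The pairing check held for ND and not for the other 4 of these. In the toxicant and dose comparisons the block changed no count of members. Over all genes it raised the calls from 0 to 6 in Cort60 and from 10 to 47 in PFOA60, each against NS. The F test among the 8 toxicant groups went from 0 to 1. Fits on the 6 libraries compared called 19 members in RA, 13 in Sorb300, 23 in RA against ND and 1 in ND. Over all genes these fits called 3601 of 12025, 2284 of 11482, 4072 of 12436 and 194 of 11717, in that order. Without the third library of each group, 14 members passed in RA, 7 in Sorb300 and 13 in RA against ND. Beside them 2387, 2815 and 2054 of all 13643 tested genes passed. Leaving out each library gave 15 to 17 calls for RA against NS, 7 to 14 for Sorb300 against NS (7 without Sorb300 library 2 or 3, 8 without NS library 3), 13 to 15 for RA against ND, 13 to 19 for Sorb300 against RA and 0 in the ND, toxicant and dose comparisons. Over all genes the same fits called 1886 to 2867, 2949 to 4922, 1509 to 2005 and 3641 to 6122 in the first 4 of these, in that order. They called 32 to 312 in ND and 0 to 40 in the toxicant and dose comparisons. The cause of the lost calls was not tested. The replicate-number tests called 0 members when fitted on the 12 libraries of NS, ND, RA and Sorb300, beside 1 (over the 3 numbers) and 3 (replicate 1) of all 12871 genes, and Pgam1 then reversed (log2 fold change -0.0610, adjusted p = 0.986). Without the NS libraries the test over the 3 numbers called 29 members and the replicate 1 test 22, beside 4015 and 1510 of all 13488 genes. No called member changed sign in RA, Sorb300 or RA against ND under any alternative run. Depth limits Ankrd37, Stc1, Eno2 and Pgk1, the tested members with the fewest counts, and Eno1.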

Other observations

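In the authors' deposited tables, 15 members had an FDR under 0.05 and a negative log2 fold change in RA and 15 in Sorb300, 1 was positive in RA, and 0 passed in ND or any toxicant group. Of all 21516 genes there, 3153 had an FDR under 0.05 in RA, 4011 in Sorb300 and 257 in ND. The toxicant groups had 0 to 60, with 60 in PFOA60.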
